A study of Mus musculus with 10 samples.

Results

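Creatine kinases and adenylate kinases move high-energy phosphate inside the heart muscle cell, and the 9 genes described here encode 4 creatine kinases (Ckm, Ckmt2, Ckb and Ckmt1), the creatine transporter (Slc6a8), 3 adenylate kinases (Ak1, Ak3 and Ak4) and an AMP deaminase (Ampd3). The genes were chosen by name, with earlier results of these data known, and all 9 are rows among the 23337 genes of the counts table, of which 11870 had enough reads to be tested. Messenger RNA was sequenced from sorted cardiomyocytes of mice at postnatal day 14. Every animal had received AAV9-cTNT-Cre, an adeno-associated virus in which the cardiac troponin T promoter drives the recombinase Cre, on postnatal day 1 at 3.6e+08 viral genomes per gram. In 5 animals both Actn2 alleles were floxed (Actn2F/F, called knockout), and in the other 5 animals 1 allele was floxed and 1 was normal (Actn2F/+, called heterozygote), so the controls had also received Cre and carried 1 floxed allele, and no untreated or wild-type group is part of the comparison. Actn2 encodes alpha-actinin-2, the actin crosslinker of the sarcomeric Z-disc. The labels do not say which signal the cells were sorted on.

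In the creatine kinase shuttle, a mitochondrial enzyme in the space between the mitochondrial membranes charges creatine to phosphocreatine, and a cytosolic enzyme next to the myofibrils, pumps and channels uses phosphocreatine to rebuild ATP. Cardiomyocytes do not complete creatine synthesis in quantity and take creatine up through a sodium-coupled transporter. Adenylate kinases interconvert ATP, ADP and AMP in parallel with this shuttle, and the AMP they form either activates AMP-activated protein kinase (AMPK), is deaminated to IMP, or is split to adenosine.

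Total counts per library ran from 8086656 to 25237696, the deepest being heterozygote 1. Levels are given in CPM (counts per 1e+06 reads of the library after TMM scaling), a ± is the SD over the 5 animals of a genotype (n = 5), and a gene was called at a Benjamini-Hochberg adjusted p below 0.05 over all tested genes in edgeR's quasi-likelihood test. Actn2 itself was at 1145 to 1286 CPM in the knockouts and at 2677 to 3474 CPM in the heterozygotes (log2 fold change -1.39 with an SE of 0.0910, edgeR adjusted p 3.48e-07). The 8 cardiomyocyte markers summed to 61178 to 79993 CPM in knockouts and to 65589 to 86031 CPM in heterozygotes, with 1 of the 8 called lower. Markers of skeletal muscle summed to at most 1.76 CPM in any library, with Myod1 and Pax7 at 0. Markers of neural and glial cells, which are rich in Ckb, summed to 2.78 to 4.58 CPM in heterozygotes and 3.02 to 6.62 CPM in knockouts. Endothelial markers summed to 352 to 641 CPM in knockouts and 543 to 1037 CPM in heterozygotes, and 2 of the 8 were called lower. Fibroblast markers summed to 272 to 594 CPM in knockouts and 297 to 492 CPM in heterozygotes, with none of 7 tested called. Smooth muscle and pericyte markers summed to 542 to 697 CPM in knockouts and 475 to 700 CPM in heterozygotes, with 1 of 8 called higher. Macrophage and leukocyte markers summed to 7.50 to 10.2 CPM in knockouts and 13.1 to 31.1 CPM in heterozygotes, with 1 of 3 tested called lower, and their part in the results was not tested. The study describes the 5 animals of each group as biological replicates and does not tie them to litters or days. In RNA of many cells, a smaller number of expressing cells and less RNA per cell cannot be told apart.

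The creatine kinase genes Ckm, Ckb and Ckmt2 fell in the knockout, and the creatine transporter gene was not called. Of the 8 members that could be tested, 5 were called lower (Ckm, Ckb, Ckmt2, Ampd3 and Ak3) and 0 higher, whereas 8.64% of all tested genes were called lower, 10.2% were called higher and 18.9% were called in either direction. With scaling by library totals alone, 68.9% of all calls were higher in place of 54.3%, and 4 members were called, each of them lower. With the mean log2 CPM of the endothelial markers as a covariate, 2 members (Ckm and Ckb) and 1168 of all tested genes were called, in place of 5 and 2241. That covariate ran from 5.07 to 5.91 in knockouts and from 5.77 to 6.56 in heterozygotes. It therefore shares part of its variation with genotype. Since the members were chosen with results known, their count is a description beside the shares of all genes. In 4 members every knockout lay below every heterozygote, against 6.32% of all tested genes, with 8.41% having every knockout above and 14.7% being apart in either direction. The median log2 fold change of the 8 tested members was -0.44, and that of all tested genes was 0.0023. Together the 9 genes took 0.849 to 1.16% of all counts in heterozygotes and 0.539 to 0.681% in knockouts.

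**Figure D1:**
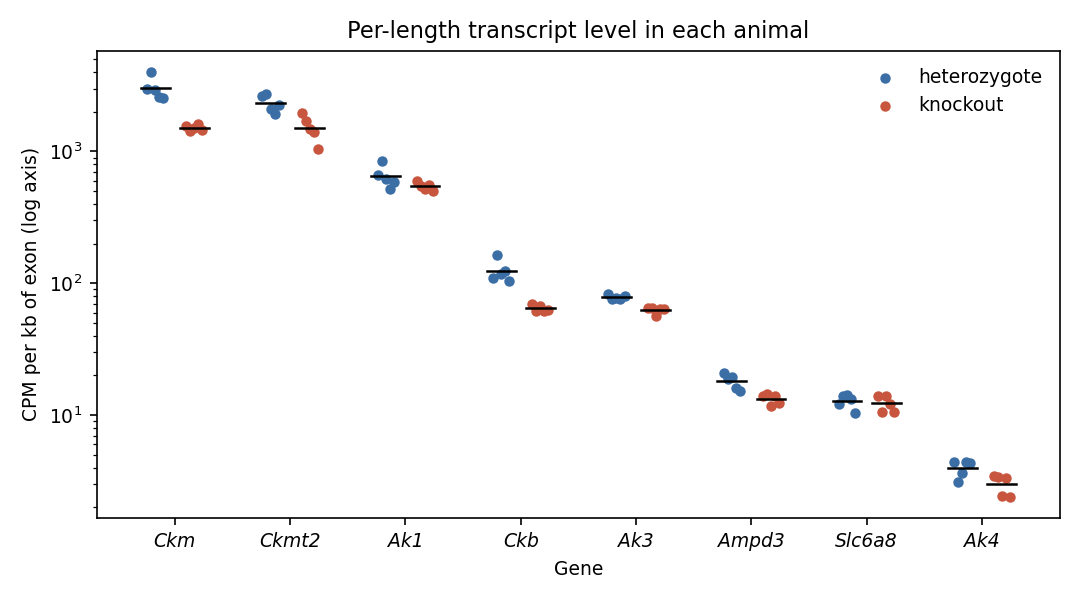
Level of each tested member in each animal, in CPM per kilobase of exon on a log axis, with genes ordered by their heterozygote mean; points are animals (5 per genotype) and black bars are group means. Ckm and Ckmt2 lie highest, with heterozygote means of 3021 and 2323, and Ak4 lies lowest at 3.99; Ckmt1, with 0 to 2 counts per library, is not drawn.

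Divided by exon length, so that genes can be set side by side, the heterozygote levels formed a ladder. Ckm stood at 3021 ± 584 CPM per kb, Ckmt2 at 2323 ± 347, Ak1 at 649 ± 123, Ckb at 124 ± 23.2, Ak3 at 78.3 ± 2.91, Ampd3 at 18.2 ± 2.45, Slc6a8 at 12.8 ± 1.56 and Ak4 at 3.99 ± 0.597. Ckm and Ckmt2 overlapped between heterozygote animals (2567 to 4009 against 1919 to 2738 CPM per kb), and no other neighbouring pair of that ladder did. In the knockout the ranges of Ckm and Ckmt2 overlapped as well, with means of 1516 CPM per kb for each, those of Ckb and Ak3 came to overlap (61.3 to 69.7 against 56.8 to 65.4), and so did those of Ampd3 and Slc6a8 (11.8 to 14.4 against 10.5 to 14.1). Among all genes of the table ranked by this per-length level, Ckm went from place 17 in the heterozygote mean to place 39 in the knockout mean, and Ckmt2 from place 28 to place 38. The plot of per-length levels shows that the order of the remaining members stayed as it was.

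Ckm encodes the muscle-type cytosolic creatine kinase, some of it bound at the sarcomeric M-band. The gene is on the plus strand of chromosome 7 (19411094 to 19421583, mouse build mm10, as are all gene positions here). Its level was 4225, 5673, 4152, 3691 and 3632 CPM in heterozygotes 1 to 5 and 2211, 2027, 2138, 2302 and 2044 CPM in knockouts 1 to 5. The lowest heterozygote was thus well above the highest knockout, and heterozygote 2 stood above its 4 group mates. On average heterozygotes had 4274 ± 826 CPM and knockouts 2145 ± 115 CPM. The fitted knockout level was 0.502 of the heterozygote level, which is a log2 fold change of -0.995 with an SE of 0.115 and a 95% interval from -1.24 to -0.75 (edgeR adjusted p 4.12e-05). Ranked by log2 fold change from the lowest, Ckm stood at place 207 of the 11870 tested genes. The coefficient of variation was 5.37% in knockouts and 19.3% in heterozygotes, where heterozygote 2 lay farthest from its group mates. The difference in spread was not tested. Without heterozygote 2 or any other single animal, the log2 fold change stayed within -1.05 to -0.87 and the gene was called in all 10 such fits.

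Ckb encodes the brain-type cytosolic enzyme, which is the form of the embryonic heart and is largely replaced by Ckm around birth; it lies on chromosome 12 at 111669355 to 111672338, on the minus strand. Heterozygotes 1 to 5 had 161, 241, 175, 183 and 154 CPM, and knockouts 1 to 5 had 103, 90.6, 99.1, 91.1 and 93.0 CPM. The groups did not overlap, and heterozygote 2 was again the highest animal. Heterozygotes averaged 183 ± 34.3 CPM and knockouts 95.4 ± 5.44 CPM, and the log2 fold change of -0.94 had an SE of 0.118 and a 95% interval from -1.19 to -0.69 (edgeR adjusted p 8.69e-05). The intervals of Ckm and Ckb overlapped over most of their length, and the difference between their fold changes was not tested. With the endothelial covariate, the log2 fold changes were -1.07 for Ckm and -0.98 for Ckb, and both stayed called.

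The balance between both cytosolic forms was measured inside each library, where it does not depend on scaling between libraries. Ckb made up 3.95% ± 0.366 of the length-divided Ckb plus Ckm counts in heterozygotes and 4.09% ± 0.253 in knockouts, a difference of 0.141 percentage points that ran from 0.035 (without heterozygote 1) to 0.288 (without heterozygote 4) when single animals were left out, and was 0.2504 without knockout 4. Heterozygote shares ran from 3.53% (Wilson 95% interval 3.42 to 3.64%) to 4.54% (4.33 to 4.76%), and knockout shares from 3.65% (3.42 to 3.89%) to 4.27% (4.02 to 4.54%). All 5 knockout values lay inside the heterozygote range, and no test was made of this share. Such intervals cover only the counting error of independent reads. They leave out variation between animals, and PCR copies of a molecule are not independent reads.

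Ckmt2 encodes the sarcomeric mitochondrial creatine kinase, the enzyme of the space between the mitochondrial membranes in heart and skeletal muscle, and lies on chromosome 13 at 91853387 to 91876885, on the minus strand. Its level was 3896, 4069, 3122, 2851 and 3320 CPM in heterozygotes 1 to 5 and 2895, 2533, 2187, 2106 and 1540 CPM in knockouts 1 to 5. Knockout 1 lay above heterozygote 4, so the groups overlapped, and knockout 5 was the lowest of all animals. Heterozygotes averaged 3452 ± 516 CPM and knockouts 2252 ± 506 CPM, and the log2 fold change of -0.62 had a 95% interval from -0.94 to -0.29 (SE 0.1498, edgeR adjusted p 0.0104). Here the knockouts varied more than for Ckm, with a coefficient of variation of 22.5%. With the endothelial covariate the log2 fold change of Ckmt2 was -0.66 and the call was lost (adjusted p 0.0559).

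Ckmt2 made up 43.6% ± 2.86 of the length-divided Ckmt2 plus Ckm counts in heterozygotes and 49.5% ± 5.65 in knockouts. Ckm exceeded Ckmt2 in all 5 heterozygotes, where the share ran from 40.6% (Wilson 95% interval 40.2 to 40.9%) to 46.8% (46.5 to 47.0%). In 2 of the 5 knockouts the per-length level of Ckmt2 was above that of Ckm, with shares of 55.5% (55.1 to 55.9%) in knockout 1 and 54.3% (53.9 to 54.7%) in knockout 2, while knockout 5 had 41.8% (41.4 to 42.2%). The groups overlapped, and whether Ckm fell further than Ckmt2 was not tested.

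Ckmt1, the ubiquitous mitochondrial creatine kinase gene of brain, gut and kidney (chromosome 2, 121358641 to 121363737), had 0 to 2 counts in every library and 4 counts in all in each genotype. It was therefore not tested, and these counts lie below the level of 3 counts per library, which corresponds to 0.126 to 0.384 CPM at these depths. Summed per length over the 4 creatine kinase genes, heterozygotes had 5467 ± 898 and knockouts 3096 ± 372 CPM per kb, and the lowest heterozygote (4651) was above the highest knockout (3581).

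**Figure D2:**
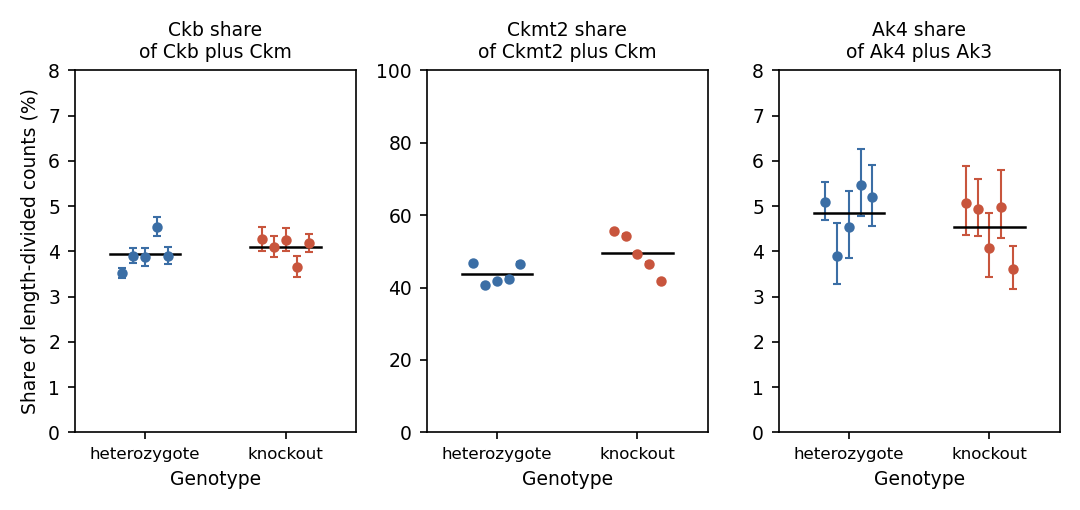
Share of length-divided counts in each animal for 3 pairs of genes, in percent on linear axes (0 to 8% in the outer panels, 0 to 100% in the middle panel); points are animals, vertical bars are Wilson 95% intervals and black lines are group means. The Ckb share is 3.95% and 4.09% on average in heterozygotes and knockouts, and the Ckmt2 share is 43.6% and 49.5%, with overlapping groups in all 3 panels.

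Since these are the 3 creatine kinase genes that fell, the 250 bases before the RefSeq start are shown, 5′ to 3′ on the gene's strand (RefSeq, GRCm38.p6; Ckm chr7:19410844-19411093 plus strand, Ckb chr12:111672339-111672588 minus strand, Ckmt2 chr13:91876886-91877135 minus strand). Capitals mark matches, on either strand, to the E-box (CANNTG), the CCAAT box (CCAAT), the TATA box (TATAAA) and the MEF2 site.
Ckm: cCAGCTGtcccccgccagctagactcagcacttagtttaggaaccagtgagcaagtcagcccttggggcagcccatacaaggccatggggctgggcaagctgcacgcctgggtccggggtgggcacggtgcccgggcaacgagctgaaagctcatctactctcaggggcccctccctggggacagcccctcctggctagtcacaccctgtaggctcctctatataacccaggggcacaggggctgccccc
Ckb: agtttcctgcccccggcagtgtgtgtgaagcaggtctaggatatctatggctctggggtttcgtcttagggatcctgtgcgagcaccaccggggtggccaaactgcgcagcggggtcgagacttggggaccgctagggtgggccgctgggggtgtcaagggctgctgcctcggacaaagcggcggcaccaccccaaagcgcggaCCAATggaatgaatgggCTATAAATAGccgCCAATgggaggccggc
Ckmt2: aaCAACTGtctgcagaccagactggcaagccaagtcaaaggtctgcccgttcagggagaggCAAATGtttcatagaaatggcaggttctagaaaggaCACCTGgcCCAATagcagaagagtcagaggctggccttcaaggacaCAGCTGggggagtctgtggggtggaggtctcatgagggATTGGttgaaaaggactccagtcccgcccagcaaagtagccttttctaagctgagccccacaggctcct
The Ckm window held 1 E-box and no exact match to the other motifs searched. The TATA search took TATAAA alone, so the run tatataa near the end of the Ckm window was not counted. Whether Ckm has a TATA box was therefore not settled by this search. The Ckb window held no E-box, 2 CCAAT boxes and a MEF2 site whose first base is 29 bases before the start, and its TATAAA match lies inside that MEF2 site. The Ckmt2 window held 4 E-boxes and 2 CCAAT boxes. The windows of Ckm and Ckb had no searched motif in common, and those of Ckm and Ckmt2 shared the E-box. Over the 32851 windows of the same length in the RefSeq table, 66.2% held an E-box, 33.8% a CCAAT box, 12.4% TATAAA, 2.92% a MEF2 site, 1.47% a CArG box and 4.08% the AAGGTCA element of estrogen-related receptors; none of the 3 windows shown held either of the last pair. The table held windows for 8 of the 9 members. A match is only a run of letters, and enhancers outside these windows were not searched.

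Slc6a8 encodes the creatine transporter of the plasma membrane and lies on the X chromosome at 73673133 to 73682500, on the plus strand. Heterozygotes 1 to 5 had 48.3, 55.1, 56.8, 52.4 and 41.2 CPM, and knockouts 1 to 5 had 55.3, 42.4, 56.0, 48.4 and 41.9 CPM. The groups overlapped over nearly their whole range. The estimate was a log2 fold change of -0.06 with a 95% interval from -0.31 to 0.19 (SE 0.116, edgeR adjusted p 0.783), and its sign turned with scaling by library totals alone (0.02). That interval does not reach the -0.995 estimated for Ckm, whose own interval ran from -1.24 to -0.75. The difference between the fold changes of Slc6a8 and Ckm was not tested. The genes of creatine synthesis were low: Gatm, whose enzyme makes guanidinoacetate, had means of 3.78 and 2.32 CPM in heterozygotes and knockouts, and Gamt, whose enzyme methylates guanidinoacetate to creatine, had 3.47 and 2.23 CPM. Neither was called (edgeR adjusted p 0.165 and 0.11997), although Gamt was called when knockout 4 was left out (adjusted p 0.0410).

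**Figure D3:**
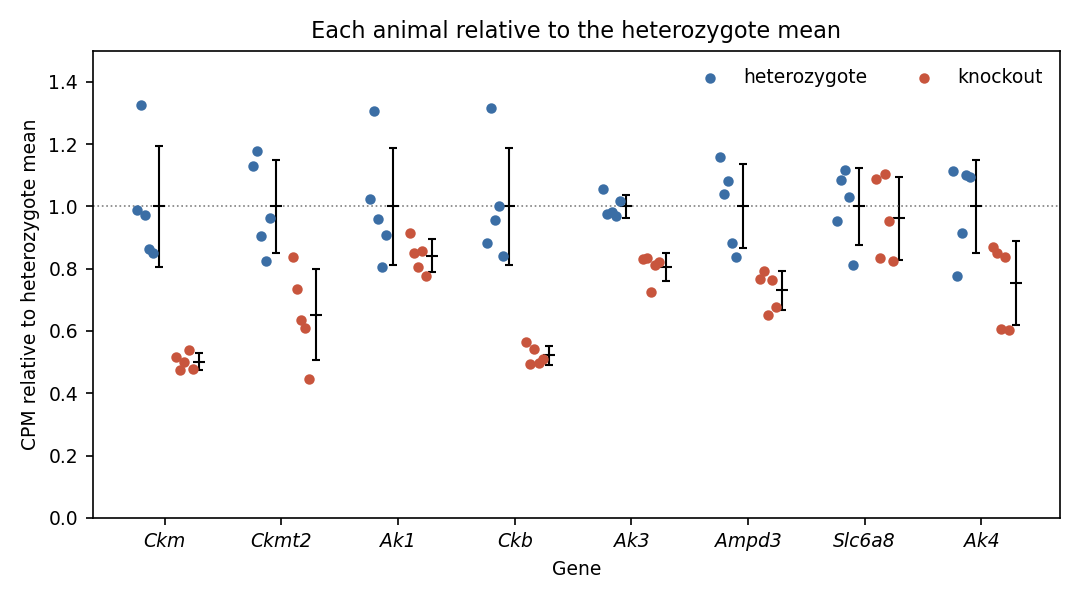
CPM of each tested member in each animal, divided by the heterozygote mean of the gene (linear axis from 0); points are animals, black marks and bars are mean and SD (n = 5 per genotype), and the dotted line is 1. Ckm and Ckb have the 2 lowest knockout means, the groups do not overlap for Ckm, Ckb, Ak3 and Ampd3, and both groups of Slc6a8 surround the line.

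Of the 3 adenylate kinase genes, Ak3 was called lower and Ak1 and Ak4 were not called. Ak1 encodes the cytosolic form, the main adenylate kinase of striated muscle (chromosome 2, 32621758 to 32635058, plus strand), and its level was 1571, 2006, 1472, 1235 and 1395 CPM in heterozygotes 1 to 5 and 1407, 1305, 1239, 1315 and 1194 CPM in knockouts 1 to 5. Heterozygote 2 was again the highest animal, and the groups overlapped. Its log2 fold change was -0.25 with a 95% interval from -0.50 to -0.0026 (SE 0.115), with an unadjusted p of 0.0479 and an edgeR adjusted p of 0.151, and Ak1 was called in none of the 20 alternative fits. Without heterozygote 2 the log2 fold change was -0.13 (adjusted p 0.326), and with the endothelial covariate it was -0.37 (adjusted p 0.148).

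Ak3 and Ak4 encode adenylate kinases of the mitochondrial matrix; the AK3 enzyme uses GTP to phosphorylate AMP. Ak3 (chromosome 19, 29020832 to 29047902, minus strand) had the smallest coefficient of variation among heterozygotes of the tested members (3.71%), with 228, 210, 211, 209 and 219 CPM in heterozygotes 1 to 5 and 179, 180, 156, 175 and 177 CPM in knockouts 1 to 5. The groups were apart, and knockout 3 lay below its group mates. With an SE of 0.0796, the log2 fold change was -0.31 and its 95% interval ran from -0.48 to -0.14 (edgeR adjusted p 0.0134). The Ak3 call was lost with scaling by library totals alone (adjusted p 0.0505) and with the endothelial covariate (log2 fold change -0.33, adjusted p 0.0800). Of its exon bases, 8.14% overlap another gene of the annotation, where the counting defaults assign no read.

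Ak4 (chromosome 4, 101419289 to 101467771, plus strand) was the lowest of the tested members, with 22.9, 15.96, 18.8, 22.6 and 22.5 CPM in heterozygotes 1 to 5 and 17.9, 17.5, 12.5, 17.2 and 12.4 CPM in knockouts 1 to 5. The groups overlapped through heterozygote 2. At a log2 fold change of -0.42 with an SE of 0.151, Ak4 was not called (edgeR adjusted p 0.0706), although it was called without heterozygote 2 (log2 fold change -0.49, adjusted p 0.0339) with DESeq2 (adjusted p 0.0416) and with voom (0.0210). With the endothelial covariate its log2 fold change shrank to -0.22 (adjusted p 0.530). Ak4 made up 4.84% ± 0.628 of length-divided Ak4 plus Ak3 counts in heterozygotes and 4.54% ± 0.650 in knockouts, and the groups overlapped. That difference of -0.302 percentage points ran from -0.538 (without heterozygote 2) to -0.072 (without knockout 5) when single animals were left out.

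Among further nucleoside monophosphate kinase genes, none of those named here was called. The UMP/CMP kinase gene Cmpk1 had 62.7 and 60.5 CPM in heterozygotes and knockouts (adjusted p 0.804). Its mitochondrial counterpart Cmpk2 had 6.51 and 3.54 CPM (adjusted p 0.0668). Cmpk2 was called with DESeq2 on all animals (adjusted p 0.0282), and with edgeR without heterozygote 1 (adjusted p 0.0298) or knockout 1 (0.0396). The minor adenylate kinase genes Ak5, Ak7 and Ak8 had 0 to 20 counts over all 5 libraries of a genotype and were not tested.

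Ampd3 encodes an AMP deaminase, named for its abundance in erythrocytes, which turns AMP into IMP (chromosome 7, 110772604 to 110812395, plus strand). Its level was 85.8, 77.1, 80.1, 65.5 and 62.2 CPM in heterozygotes 1 to 5 and 56.85, 58.7, 48.3, 56.6 and 50.2 CPM in knockouts 1 to 5. Every knockout lay below every heterozygote, with a gap from 58.7 to 62.2 CPM. This gave a log2 fold change of -0.46 with a 95% interval from -0.68 to -0.23 (SE 0.107, edgeR adjusted p 0.00840). The 7 erythroid markers in the table summed to at most 1.41 CPM in any library; the 4 globin genes among them were listed at 0, and they have near-identical copies whose reads this kind of counting leaves out. With the endothelial covariate the log2 fold change of Ampd3 was -0.47 and the call was lost (adjusted p 0.0620).

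Around AMP, the genes of adenine nucleotide turnover changed in both directions. Over all tested genes, 10.2% were called higher and 8.64% lower. Of 17 genes listed, 13 were tested, of which 3 were called higher, 3 lower and 7 were not called, with a median log2 fold change of -0.13. The genes called higher release nucleosides or salvage bases. Nt5e, which encodes the ecto-5′-nucleotidase that forms adenosine outside the cell, rose from 33.6 ± 7.10 to 65.9 ± 5.19 CPM, by 0.97 on the log2 scale with an SE of 0.1301 (edgeR adjusted p 0.000152). Nt5c2, which encodes a cytosolic nucleotidase acting on IMP and GMP, rose from 83.3 ± 3.04 to 153 ± 12.4 CPM, by 0.88 on the log2 scale with an SE of 0.0852 (adjusted p 9.93e-06), and the groups were apart for both. Hprt, the hypoxanthine salvage enzyme, rose from 122 to 165 CPM (log2 fold change 0.44, adjusted p 0.0224), a call lost without knockout 1 or knockout 3 (adjusted p 0.0577 and 0.0600). Of the exon bases of Nt5c2, 11% overlap another gene.

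The 3 genes of this list called lower belong to AMP formation. Adk, whose enzyme phosphorylates adenosine back to AMP, fell from 303 ± 24.5 to 214 ± 19.5 CPM, by 0.51 on the log2 scale with an SE of 0.0934 (edgeR adjusted p 0.00179). Adssl1, the muscle form of adenylosuccinate synthetase, fell from 268 ± 60.8 to 172 ± 20.5 CPM, by 0.64 on the log2 scale with an SE of 0.144 (adjusted p 0.00655). Adsl, the adenylosuccinate lyase, fell from 172 ± 22.2 to 125 ± 15.2 CPM, by 0.46 on the log2 scale with an SE of 0.113 (adjusted p 0.0115), a call lost with the endothelial covariate (log2 fold change -0.50, adjusted p 0.0594). Together with AMP deaminase, the last pair forms the purine nucleotide cycle of muscle. Uncalled were Nt5c3 (81.7 and 74.6 CPM in heterozygotes and knockouts, adjusted p 0.413), Aprt (15.99 and 15.4 CPM, 0.875) and the AMP deaminase gene Ampd2 (10.2 and 12.5 CPM, 0.265) among others. The skeletal muscle AMP deaminase gene Ampd1 had 3 and 4 counts in all and was not tested.

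Among the genes of AMPK, the sensor of AMP, and of its activating kinases, 1 of 11 tested was called higher and 2 lower, with a median log2 fold change of 0.16, where 10.2% and 8.64% of all tested genes were called in these directions. Prkag3, the gamma subunit best known from skeletal muscle, rose from 7.60 ± 4.59 to 19.05 ± 5.76 CPM, by 1.34 on the log2 scale with an SE of 0.324 (edgeR adjusted p 0.00983), with overlapping groups, and the call was lost with the endothelial covariate (1.21, adjusted p 0.0939). Prkab1, a beta subunit, fell from 76.0 ± 6.31 to 55.6 ± 2.99 CPM, by 0.45 on the log2 scale with an SE of 0.0868 (adjusted p 0.00241). Stk11, which encodes the upstream kinase LKB1, was called lower (41.3 and 31.3 CPM in heterozygotes and knockouts, adjusted p 0.0439), a call lost in 6 of the 10 fits without a single animal (heterozygotes 1 and 2, knockouts 1, 3, 4 and 5, adjusted p 0.0718 to 0.127), with library totals alone (0.0787), with no filter (0.0553) and with the endothelial covariate (0.0515). The catalytic subunit gene Prkaa2 had 220 and 264 CPM (adjusted p 0.121), the adaptor gene Cab39 had 153 and 169 CPM (0.403) and the gamma subunit gene Prkag1 had 118 and 100.3 CPM (0.140).

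Among the mitochondrial carriers and pores through which ADP, ATP and phosphate pass, most of the tested genes fell. Of 10 listed genes 9 were tested, of which 6 were called lower, 1 higher and 2 were not called, with a median log2 fold change of -0.31. Over all tested genes, 8.64% were called lower and 10.2% higher. Slc25a4, the heart and muscle ADP/ATP carrier, fell from 8502 ± 1626 to 5296 ± 573 CPM, by 0.68 on the log2 scale with an SE of 0.121 (edgeR adjusted p 0.00135). Slc25a3, the phosphate carrier, fell from 1684 ± 85.9 to 1143 ± 67.3 CPM, by 0.56 on the log2 scale with an SE of 0.0773 (adjusted p 0.000196). Slc25a5, a second ADP/ATP carrier, and the outer membrane pore genes Vdac1 and Vdac2 fell by 0.39, 0.38 and 0.31 on the log2 scale (adjusted p 0.00988, 0.00599 and 0.0115). With the endothelial covariate the calls of Slc25a5 (log2 fold change -0.43, adjusted p 0.0505) and Vdac2 (-0.32, 0.0856) were lost. Every knockout lay below every heterozygote in 6.32% of all tested genes, and in all 6 genes of this list called lower. The sixth, Vdac3, named after its values were seen, went from 290 to 243 CPM with an adjusted p of 0.0477, which rose above 0.05 in 8 of the 10 fits that left out an animal (all but those without heterozygote 2 or 3, adjusted p 0.0656 to 0.132), with the replicate number as a block (0.0820), with library totals alone (0.146), with no filter (0.0925) and with the endothelial covariate (0.148). The ATP-Mg/phosphate carrier gene Slc25a23 was called higher (56.7 and 78.5 CPM in heterozygotes and knockouts, adjusted p 0.0228), a call lost without heterozygote 1 or 5 or knockout 1 or 3 (adjusted p 0.0526 to 0.0546) and with the endothelial covariate (log2 fold change 0.30, adjusted p 0.3005). Its relatives Slc25a25 (adjusted p 0.813) and Slc25a24 (0.750) were not called.

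Nucleoside diphosphate kinases pass the phosphate of ATP on to other nucleotides. Of 6 tested genes 1 was called, where 18.9% of all tested genes were called in either direction. Nme2 had 414 ± 36.8 CPM in heterozygotes and 328 ± 35.3 CPM in knockouts, a log2 fold change of -0.33 (edgeR adjusted p 0.0275), a call lost in 5 of the 10 fits without a single animal (heterozygotes 1 and 5, knockouts 2, 4 and 5, adjusted p 0.0508 to 0.0748) with the replicate number as a block (0.0567), with library totals alone (0.0658) and with the endothelial covariate (0.105). Its close copy Nme1 (74.9 and 83.1 CPM, adjusted p 0.466), Nme7 (0.370) and Nme6 (0.0941) were not called, and the split of reads between Nme1 and Nme2 is uncertain. Over the 44 tested genes of these 6 lists, 13 were called lower and 5 higher, the median log2 fold change was -0.23, and the corresponding shares over all tested genes are the 8.64% and 10.2% given above. With library totals alone the counts were 10 lower and 7 higher.

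**Figure D4:**
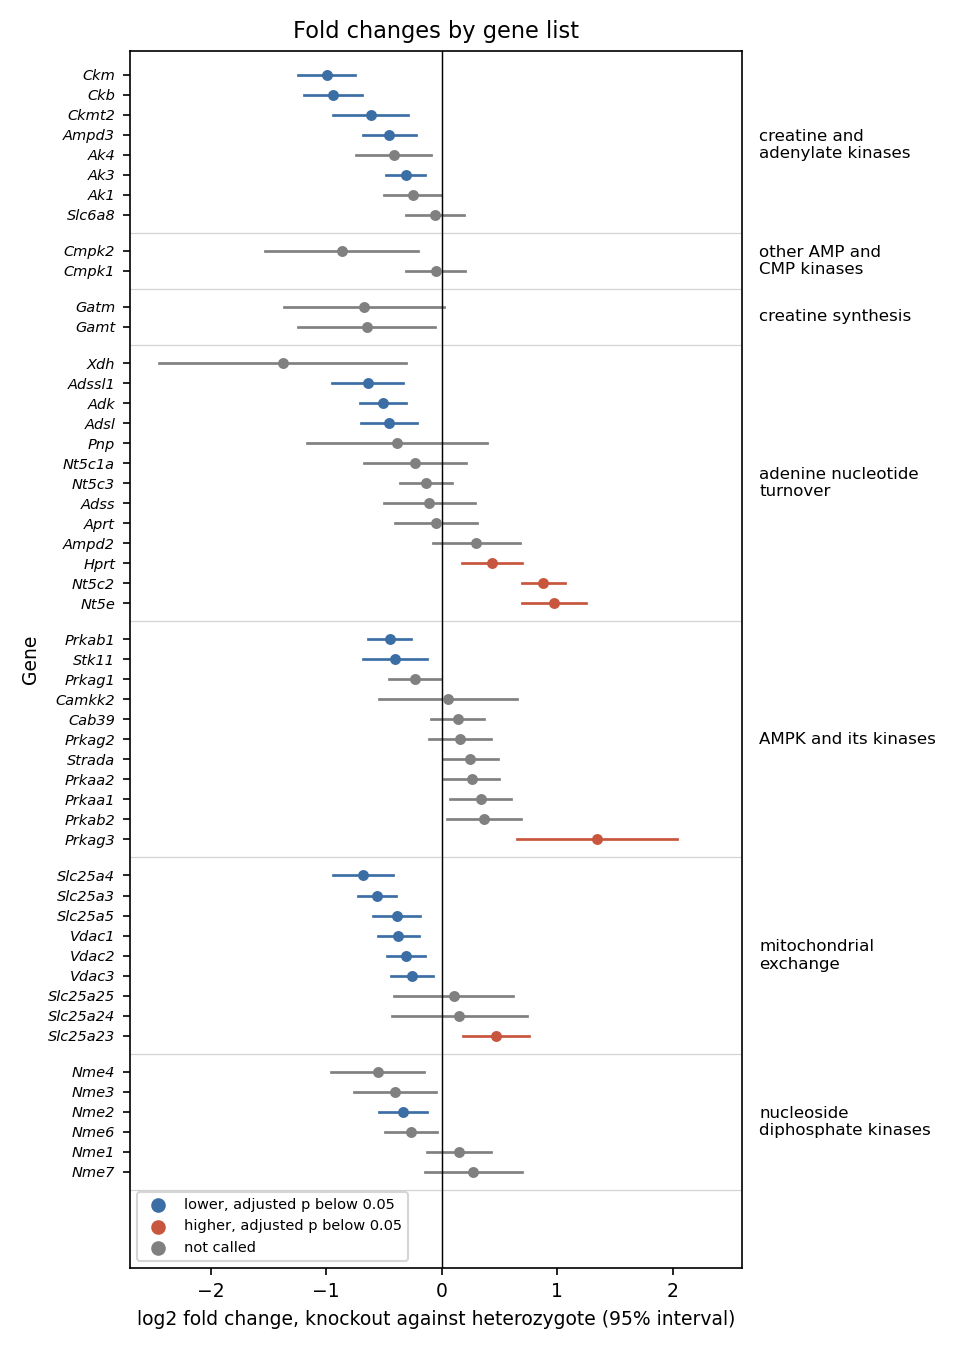
Log2 fold change of knockout against heterozygote with its 95% interval for each tested member and the tested genes of the 6 other lists that are reported here; blue and red mark genes called lower and higher, grey marks genes not called. The members lie to the left of 0, with Ckm at -0.995 and Slc6a8 at -0.06, and Nt5e at 0.97, Nt5c2 at 0.88 and Prkag3 at 1.34 lie farthest right among called genes.

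The genes most like each member were sought among the 8368 genes averaging 10 CPM or more, by Pearson's r of log2 CPM over the 10 libraries. These libraries include both genotypes, so the measure contains the shift between them, and no test was made. With each genotype's mean removed, r over the 24 pairs ran from 0.790 to 0.976. For Ckm they were Lrg1 (0.988), Coq6 (0.987) and Bsg (0.987), and for Ckb they were Bsg (0.981), Ckm itself (0.978) and Yars2 (0.978). For Ckmt2 they were Bcat2 (0.965), Pgm2 (0.962) and Igsf1 (0.958), and for Ampd3 they were Fitm2 (0.973), Fam131a (0.962) and Oxnad1 (0.961). Ak3 was followed most closely by Hspa9 (0.979), Nap1l4 (0.9749) and Hspd1 (0.974), Ak1 by Fam73b (0.981), Dhodh (0.980) and Klhdc8a (0.972), and Ak4 by Rab10 (0.967), Tcp1 (0.933) and Hibch (0.930). Slc6a8, which did not separate the genotypes, was most like Clec16a (0.909), Tpst2 (0.899) and Snrpa (0.890), none of which was called. Ckm was thus the second of 8368 candidates for Ckb. In this ranking over both genotypes, no other member appeared among the 3 genes most like another. With each genotype's mean removed, r with Ckm was 0.917 for Ak1 and 0.805 for Ckb. On the same measure it was 0.873 to 0.887 for the 3 genes listed for Ckm, and no ranking was made on that measure.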

How the data were processed

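Per the file headers, the deposited values are counts of reads per gene, made by the authors with featureCounts 1.5.1 (4 threads, no other option) on a UCSC mm10 annotation archived in 2012. By that program's defaults strand is ignored and reads matching several places or genes are dropped. The submitters' processing notes name STAR 2.5.3a and Subread 1.5.2, while the alignment names in the header are another aligner's defaults. Of 14 count columns, 10 match samples here by name and 4 were not used. Library totals were 8086656 to 25237696 counts. Exon lengths come from the same table.

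Genes were filtered with filterByExpr (minimum count 10, total 15), scaled by TMM and compared over all 10 samples with edgeR 4.0.16's quasi-likelihood test in R 4.3.3, without covariates. An SE is the log2 fold change divided by the square root of F. Shares are of counts divided by exon length, with Wilson 95% intervals carried through that division; no share was tested. Alternatives were other scalings and filters, DESeq2 1.42.0, limma 3.58.1's voom, a replicate block, Y-linked and endothelial covariates, and leaving out each animal. On simulated counts for this comparison (11870 genes, 11776 tested), 84% of 2-fold and 99% of 4-fold changes were called. Of the tested genes 197 were changed there, far fewer than the 2241 called in the data. No smaller change was simulated, so these shares do not cover changes of the size estimated for Ak1, Ak4 or Slc6a8.

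Named are Actn2, all members, per list up to 6 called genes by adjusted p and the 3 uncalled genes of highest mean, and the 3 genes most like each member. Members and lists were chosen with earlier results of these data known. A result covered by this rule is not reported here, though counts over the lists include it.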

Additional observations from a re-analysis of the deposited data

Results flagged for a closer look

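In 28 groups of 5 values (a member's level, a share or a total in 1 genotype), 3 held an animal set off from its nearest neighbour by more than 0.71 of the group's spread from lowest to highest; by chance about 1 group in 20 does. For Ak3, knockout 3 had 7.29 log2 CPM while the nearest other knockout had 7.45 (gap 0.810 of that spread); without that animal Ak3 was still called. The Ckb share of length-divided Ckb plus Ckm counts was 3.65% in knockout 4, with the nearest other knockout at 4.10% (gap 0.731). Total counts were 25237696 in heterozygote 1 against 10309615 in the next deepest heterozygote (gap 0.870), and the same 5 members were called without it.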

How the results depend on the processing

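Of 180 combinations of a gene (Actn2 or a tested member) and an alternative, 170 kept direction and call; 4 lost the call, 3 gained it (all Ak4) and 3 turned sign. Those last are Slc6a8 with library totals alone (0.022), voom (0.0175) and the endothelial covariate (0.0153). The endothelial covariate moved the counts of calls most, to 1168 of all genes (from 2241), 2 members (Ckm and Ckb) and 10 other pathway genes (from 18), and the cause was not tested. That covariate shares part of its variation with genotype. Under it the log2 fold changes of Ckmt2, Ak3 and Ampd3 were -0.66, -0.33 and -0.47, that of Ak1 went from -0.25 to -0.37 and that of Ak4 from -0.42 to -0.22. Leaving out single animals gave 1699 to 2258 calls among all genes, 5 to 6 members and 14 to 18 pathway genes, and differences in share (knockout minus heterozygote) of 0.035 to 0.288 points for Ckb, 4.41 to 7.84 for Ckmt2 and -0.538 to -0.072 for Ak4. Of the 18 pathway calls, 9 held in all 20 alternatives.

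Same-numbered animals did not deviate together in every pair (correlations 0.112, -0.0124, -0.0604, 0.185 and 0.141), and 4 of 10 samples correlated best with their own number. No chance level was worked out for these values, so they do not decide whether the numbers mark pairs. The main fit took the animals as unpaired. With the replicate block 2182 genes and 5 members were called, and 16 pathway genes. Depth limits Ckmt1, Ampd1, Ak5 and Ak8, which had at most 4 counts over the 5 libraries of a genotype.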
